A study of Arabidopsis thaliana with 12 samples.

Results

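The genes described here are 40 named genes whose signal was at least halved with bromoxynil once the arrays were quantile-normalised. The plants were wild-type Arabidopsis, Landsberg ecotype, and the treated plants were given 500 µM bromoxynil. The 40 genes were chosen from 692 probes that the platform annotation ties to 1 gene, out of 3439 probes on the array. On quantile-normalised log2 values, the highest of the 6 bromoxynil arrays had to lie below the lowest of the 6 water arrays. The mean difference also had to be -1 or less. Both conditions were met by 62 (8.96%) of the 692 named probes, and by 357 (10.4%) of all 3439 probes. Of the 62, 15 lie among the 10% brightest with water and 7 are among 13 loci that were set aside. The remaining 40 come from 40 loci. On the values as deposited, 22 of the 40 had a mean difference of -1 or less. For scale, limma called 29.9% of all probes lower with bromoxynil (threshold of 0.05 after Benjamini-Hochberg adjustment). All 12 arrays were used to choose them, so every difference between bromoxynil and water given below is a description and carries no test.

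Total RNA came from plants that had been in darkness for 12 h and were then returned to light for 30 min, either with bromoxynil (6 arrays) or with water (6 arrays). The labels name no organ, no transgene and no separate plants behind the arrays of a group. Values are relative intensities on a linear scale on which the same feature is 100 on every array. Ranges, medians and means of relative intensity below are as deposited. Log2 differences, gaps, spreads, standard errors and fold values are from quantile-normalised values unless another scale is named. The printed intensities therefore need not yield the printed differences. In RNA from many cells together, fewer cells of a type and less RNA per cell cannot be told apart. Of 8 green tissue, 4 root and 3 seed markers, only the green marker AT2G34420 had a named probe. It encodes a chlorophyll-binding protein of the light-harvesting antenna. Its relative intensity was 6.94 to 8.67 with bromoxynil, against 15.4 to 23.3 with water, so the groups did not overlap. It is not among the 40, and its part in their differences was not tested.

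Bromoxynil is a nitrile herbicide that occupies the plastoquinone site of photosystem II and so stops electrons from leaving it. In untreated leaves, light after darkness reduces the plastoquinone pool, ferredoxin and thioredoxins, and drives the making of NADPH and ATP. Transcripts of many nuclear genes for plastid proteins are known to follow the redox state of these carriers and the light itself.

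Over the 40 genes, the log2 difference between bromoxynil and water had a median of -1.35 and ran from -2.76 for AT4G16060 to the limit of -1. The median over all 692 named probes was 0.03. In 10 of the 40 genes the bromoxynil mean was lower by a factor of 3 or more. This held for 7 of the 10 whichever array was left out. The other 3 fell short without 1 array, with log2 differences of -1.44 for AT4G16060 and -1.05 for AT4G03150 without bromoxynil array 1, and -1.25 for AT3G45770 without bromoxynil array 6. The genes included redox enzymes, proteins that bind nucleic acids, secreted and cell surface proteins, and plastid membrane and lumen proteins. For 26 of them a role is known well enough to be given below, and the other 14 are named by locus alone. These role groups were drawn up after the values had been seen.

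The separation between the groups differed widely among the genes. The gap between the lowest water array and the highest bromoxynil array had a median of 0.55 on the log2 scale. It was largest for AT1G15140, at 1.23, and smallest for AT5G39410, at 0.10. The gap was 0.5 or more for 23 of the 40 genes. The spread within a group was larger with bromoxynil than with water for 28 genes, with median standard deviations of 0.34 with bromoxynil and 0.26 with water (log2, n = 6 arrays each). The largest with bromoxynil, 3.19 for AT4G16060 and 3.35 for AT4G03150, include a replaced 0. The same count over all probes is not given here, so it is not read as a trait of the 40.

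**Figure D1:**
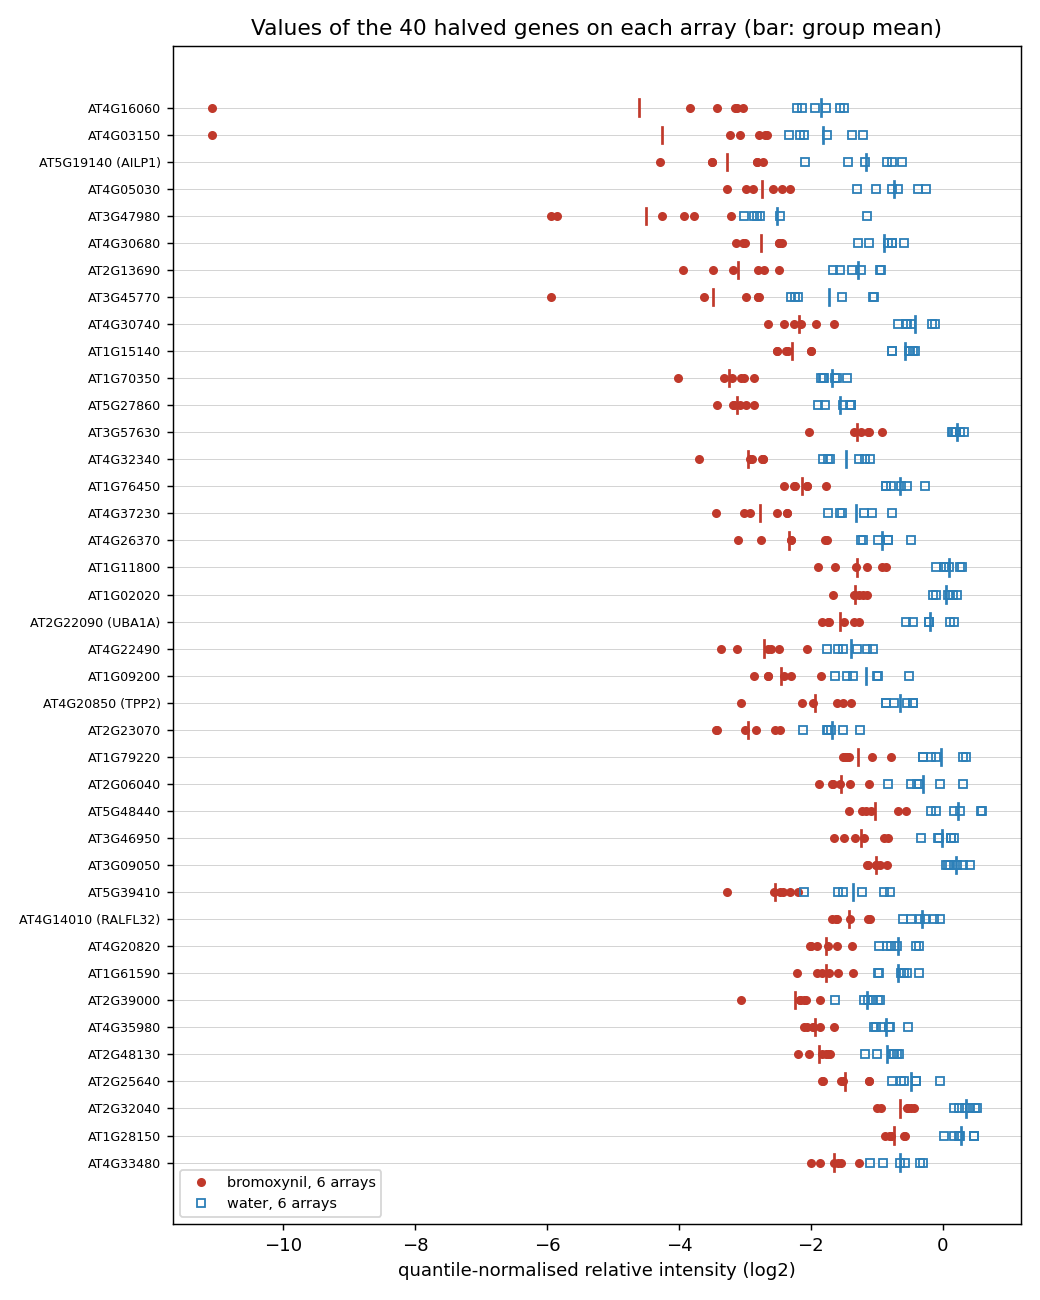
Quantile-normalised relative intensity (log2) of the 40 genes on each array, ordered by the size of the difference, with filled circles for the 6 bromoxynil arrays, open squares for the 6 water arrays and bars for group means. No circle lies at or right of a square of the same gene, and bromoxynil array 1 stands far left for AT4G16060 and AT4G03150, which are listed at 0 there.

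Redox enzymes made up 6 of the 40 genes, with a median log2 difference of -1.31. AT1G15140 encodes an oxidoreductase that binds FAD and NAD(P). Its relative intensity was between 0.189 and 0.28 (median 0.204) on the bromoxynil arrays, against 0.5 to 0.639 (median 0.604) on the water arrays. The 6 arrays of each group lay close together and far from the other group. On quantile-normalised values the log2 difference was -1.72 ± 0.12 (SE, n = 6 per group), a level 3.29-fold lower with bromoxynil. On the deposited values it was -1.39.

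AT3G45770 is an enoyl reductase of fatty acid synthesis in mitochondria. It ranged from 0.00656 to 0.155 (median 0.14) with bromoxynil, against 0.18 to 0.403 (median 0.269) with water. A single bromoxynil array, number 6, held the very low value. The log2 difference was -1.76 ± 0.53 (SE, n = 6 per group), whereas the medians of the groups differed by -1.03 on the same scale.

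AT1G02020, a member of the nitroreductase family, was at 0.367 to 0.533 (median 0.473) with bromoxynil, against 0.803 to 1.02 (median 0.946) with water. Its log2 difference of -1.38 ± 0.10 (SE, n = 6 per group) had one of the smaller errors among the 40 genes. AT5G48440, an FAD-dependent oxidoreductase, was at 0.426 to 0.802 with bromoxynil and 0.788 to 1.4 with water, so its deposited values overlapped. On quantile-normalised values they did not, and the log2 difference was -1.25 ± 0.18.

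The remaining redox enzymes were AT5G39410, related to saccharopine dehydrogenase, and AT4G20820, an FAD-linked enzyme of the berberine bridge family. The log2 difference of AT5G39410 was -1.19 ± 0.24, and AT4G20820 was 2.14-fold lower with bromoxynil. The deposited values of both genes overlapped between the groups.

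Plastid proteins of the thylakoid lumen and of plastid membranes were represented by 3 genes. AT1G76450 encodes a lumen protein with the PsbP domain, named after a subunit of the oxygen-evolving complex of photosystem II. It was at 0.197 to 0.331 (median 0.251) with bromoxynil, against 0.46 to 0.704 (median 0.529) with water, with no overlap. The log2 difference was -1.48 ± 0.13 (SE, n = 6 per group).

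AT3G47980, an integral membrane protein of the HPP family, was the dimmest of the 40 with water. It was at 0.0145 to 0.103 (median 0.0459) with bromoxynil, against 0.129 to 0.38 (median 0.148) with water. Its log2 difference was -1.98 ± 0.51, and water array 2 lay above the others. AT2G32040, a folate transporter of the plastid envelope, was the brightest of the 40 with water. It was at 0.594 to 0.869 (median 0.79) with bromoxynil, against 1.01 to 1.36 (median 1.19) with water, and its log2 difference was -1.01 ± 0.12.

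Genes for proteins that act on DNA, RNA or translation numbered 9, with a median log2 difference of -1.30. AT4G30680 carries the MA3 domain found in translation initiation factors of the eIF4G type. It was at 0.111 to 0.205 (median 0.158) with bromoxynil, against 0.372 to 0.569 (median 0.469) with water. The groups were separated by a gap of 1.16 on the log2 scale, and the difference was -1.87 ± 0.17 (SE, n = 6 per group).

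Organelle gene expression accounted for several of these genes. AT1G79220 and AT3G46950 belong to the mTERF family, whose members bind organelle nucleic acids. AT1G79220 was at 0.397 to 0.686 (median 0.426) with bromoxynil, against 0.705 to 1.18 (median 0.803) with water, and AT3G46950 was at 0.363 to 0.643 (median 0.489) with bromoxynil, against 0.665 to 1.04 (median 0.92) with water. The log2 differences were -1.26 ± 0.17 for AT1G79220 and -1.23 ± 0.15 for AT3G46950.

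AT4G26370 carries the NusB domain of transcription antitermination factors. It was at 0.121 to 0.336 (median 0.224) with bromoxynil, against 0.358 to 0.61 (median 0.459) with water, a log2 difference of -1.41 ± 0.24. AT2G23070 is the catalytic subunit of plastid casein kinase 2, which phosphorylates proteins of plastid transcription and RNA binding. It was at 0.0904 to 0.201 (median 0.128) with bromoxynil, against 0.227 to 0.357 (median 0.272) with water, a log2 difference of -1.27 ± 0.20.

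Nuclear proteins of this group were UBA1A, AT1G09200, AT1G11800 and AT2G25640. UBA1A (AT2G22090), an RNA-binding partner of the UBP1 protein, was at 0.327 to 0.472 (median 0.377) with bromoxynil, against 0.612 to 0.979 (median 0.754) with water, and its log2 difference was -1.37 ± 0.15. AT1G11800, of the endonuclease/exonuclease/phosphatase family, had a log2 difference of -1.40 ± 0.17. AT2G25640, which has a SPOC domain and a domain of transcription elongation factor S-II, stood near the limit at -1.01 ± 0.16.

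AT1G09200 encodes histone H3.1, the form of histone H3 that is laid down during DNA replication. It was at 0.132 to 0.312 (median 0.192) with bromoxynil, against 0.3 to 0.608 (median 0.382) with water, a log2 difference of -1.30 ± 0.21. The deposited values of the groups overlapped at their edges. Several Arabidopsis genes encode the same H3.1 protein, so the signal may not come from AT1G09200 alone. The probe annotated with AT5G65360, another H3.1 gene, was listed at 0 on all 6 bromoxynil arrays and on 4 of 6 water arrays.

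Secreted, cell surface and signalling proteins gave 5 genes, with a median log2 difference of -1.11. AT3G57630 is a glycosyltransferase of the exostosin family that adds arabinose to extensins of the cell wall. It was at 0.274 to 0.598 (median 0.518) with bromoxynil, against 0.984 to 1.17 (median 1.03) with water. Its water arrays were among the most alike of any gene here, and its log2 difference was -1.51 ± 0.16 (SE, n = 6 per group).

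RALFL32 (AT4G14010), a small secreted peptide of the rapid alkalinization factor type, was at 0.354 to 0.528 (median 0.409) with bromoxynil, against 0.586 to 0.838 (median 0.7) with water. Its log2 difference was -1.11 ± 0.13. AT1G61590, a receptor-like cytoplasmic kinase, had a difference of -1.09 ± 0.15. AT4G22490 and AT2G48130, from the family of lipid transfer proteins and protease inhibitors, had differences of -1.32 ± 0.21 for AT4G22490 and -1.04 ± 0.12 for AT2G48130.

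AILP1 (AT5G19140), of a family first described as aluminium-induced, had the largest difference among genes with a known name. It was at 0.0397 to 0.172 (median 0.112) with bromoxynil, against 0.202 to 0.551 (median 0.435) with water, a log2 difference of -2.12 ± 0.32 (SE, n = 6 per group). TPP2 (AT4G20850) is tripeptidyl peptidase II, a large protease that trims peptides. It was at 0.118 to 0.442 (median 0.333) with bromoxynil, against 0.494 to 0.631 (median 0.539) with water, a log2 difference of -1.29 ± 0.25. AT2G39000, an acetyltransferase of the GNAT family found in plastids, had a log2 difference of -1.09 ± 0.19.

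The 14 genes without a given role had a median log2 difference of -1.51, the largest in size of the role groups. AT4G16060 had a difference of -2.76 ± 1.23 and AT4G03150 one of -2.44 ± 1.30 (SE, n = 6 per group), the largest errors here, and both genes are listed at 0 on bromoxynil array 1. AT4G16060 was at 0 to 0.129 (median 0.108) with bromoxynil, against 0.203 to 0.298 (median 0.252) with water. AT4G03150 was at 0 to 0.167 (median 0.131) with bromoxynil, against 0.194 to 0.363 (median 0.241) with water. Without bromoxynil array 1 these differences shrank to -1.44 for AT4G16060 and -1.05 for AT4G03150.

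AT4G05030 was not listed at 0 on any array. It was at 0.121 to 0.213 (median 0.156) with bromoxynil, against 0.337 to 0.729 (median 0.54) with water, a log2 difference of -2.01 ± 0.21 (SE, n = 6 per group). AT2G13690 was at 0.0576 to 0.184 (median 0.136) with bromoxynil, against 0.296 to 0.446 (median 0.342) with water, with a difference of -1.81 ± 0.24. AT4G30740 was at 0.159 to 0.36 (median 0.237) with bromoxynil, against 0.517 to 0.798 (median 0.612) with water, with a difference of -1.75 ± 0.17. In each of these 3 genes the lowest water value was well above the highest bromoxynil value.

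The other genes without a given role were AT1G70350 (log2 difference -1.56), AT5G27860 (-1.55), AT4G32340 (-1.48), AT4G37230 (-1.46), AT2G06040 (-1.25), AT3G09050 (-1.21), AT4G35980 (-1.08), AT1G28150 (-1.01) and AT4G33480 (-1.0043). AT3G09050 had the smallest error of the 40, at 0.09.

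The limit of -1 runs through a dense part of the distribution. Just inside it lay AT2G32040 (-1.01), AT1G28150 (-1.01) and AT4G33480 (-1.0043). Just outside lay AT2G15440 (-0.99999), AT2G46630 (-0.99) and AT1G78790 (-0.99). A further 22 named genes, not set aside and below the brightest 10%, had a difference of -1 or less but groups that overlapped.

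The choice of genes places every bromoxynil array below every water array. The median of the 40 genes, on quantile-normalised log2 values, lay between -2.23 and -1.95 on the bromoxynil arrays, against -0.91 to -0.60 on the water arrays. The bromoxynil array closest to water was number 5, which was the highest of its group for 11 of the 40 genes. The water array closest to bromoxynil was number 4, the lowest of its group for 12 genes. When arrays of the same number were set against each other, the median difference over the 40 genes was smallest for number 4, at -1.12, and largest for number 1, at -1.47.

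The level of the genes with water spanned most of the range that the choice allowed. The mean relative intensity with water ran from 0.183 for AT3G47980 to 1.19 for AT2G32040, with a median of 0.541, against a median of 0.448 over the 692 named probes. With bromoxynil the means ran from 0.0527 to 0.745. Of the 40 genes, 18 (45.0%) had probes among the dimmest 25% on the array by the mean over all arrays, against 186 (26.9%) of the 692 named probes. The mean over all arrays includes the lowered bromoxynil values. The dim genes had a median difference of -1.55 and the other 22 genes a median of -1.24. Of the 10 genes with the largest differences, 8 were dim.

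**Figure D2:**
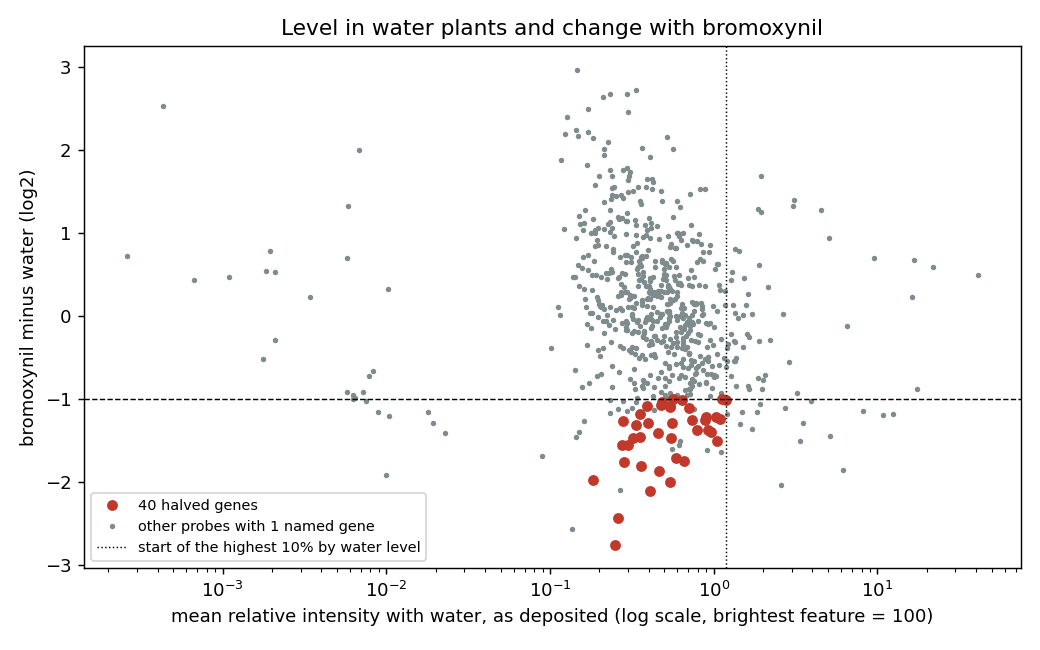
Mean deposited relative intensity with water (log axis, brightest feature 100) against the log2 difference between bromoxynil and water for each named probe above 0 with water, with the 40 genes as large red circles, the other named probes as small grey points, the limit of -1 as a dashed line and the start of the brightest 10% as a dotted line. The largest differences, AT4G16060 at -2.76 and AT4G03150 at -2.44, are at low water levels.

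The place of a probe on the array moved with these differences. Changes follow the probe number with a regular repeat, and over 24 bins of 12 places the median difference of the probes that are not among the 40 ran from -0.67 to 0.65. The 6 bins with the lowest medians held 24 of the 40 genes (60.0%) and 143 of the 692 named probes (20.7%). For 33 of the 40 genes (82.5%) the other probes within 6 places had a median difference below 0, as they did for 292 (42.2%) of the named probes. The part of place in the differences was not tested apart from bromoxynil. After each array was adjusted for place, the 40 differences had a median of -0.93 and a range of -2.75 to -0.38. The genes were chosen at -1 or less, and no surrounding median was below -0.77. A change of sign was therefore unlikely from the start. The groups still did not overlap for 27 of the 40, against 120 (17.3%) of the 692 named probes. The difference was -1 or less for 17 of the 40, against 71 (10.3%) of the named probes. Both held for 15 of the 40, against 50 (7.23%) of the named probes.

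For 7 of the 40 genes the median of the surrounding probes was not below 0. After the adjustment the difference of each was larger in size than before. This follows largely from the adjustment itself, which subtracts the surrounding median on each array. AILP1 had -2.75 after adjustment, against a surrounding median of 0.68. AT3G45770 had -2.25, AT5G48440 -1.89, AT1G76450 -1.87, AT5G27860 -1.85, AT1G09200 -1.68 and AT1G28150 -1.31. Among the other 33 genes, 10 remained at -1 or less, and their median was -0.80 with the adjustment and -1.32 without it. The smallest adjusted difference was that of AT2G32040, at -0.38.

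**Figure D3:**
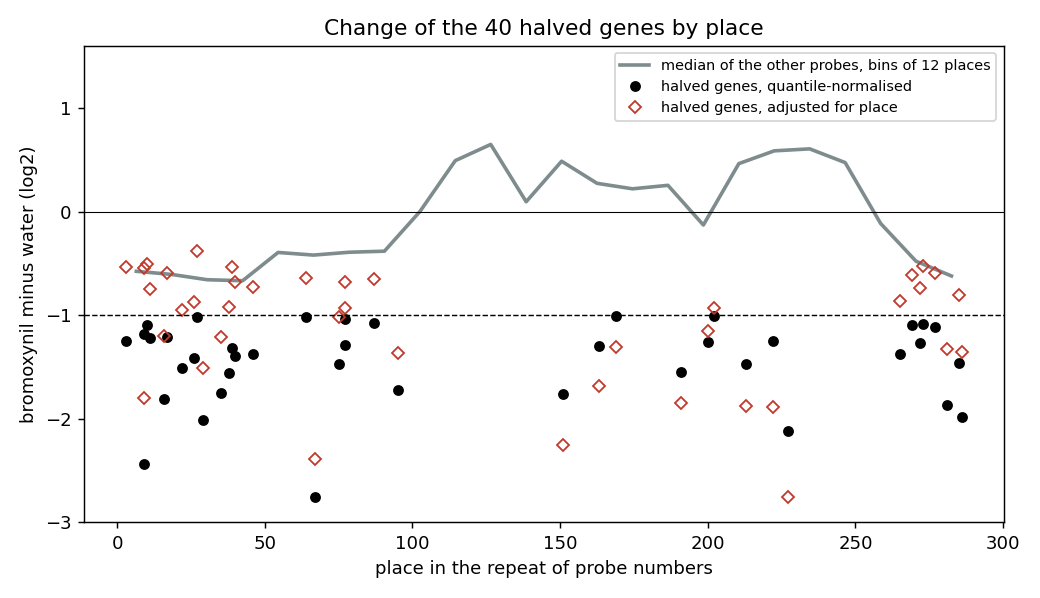
Log2 difference between bromoxynil and water by place in the repeat of probe numbers, with the grey line for the median of all other probes in bins of 12 places, black circles for the 40 genes and open red diamonds for the same genes after adjustment for place. Of the 40 circles, 24 lie in the 6 bins with the lowest medians, and the 7 genes in places without a lower surrounding have diamonds below their circles.

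By role, adjustment for place left the groups unequal. Of the 6 redox enzymes, 3 stayed at -1 or less: AT3G45770, AT5G48440 and AT1G15140, which had -1.37. Of the 9 genes for nucleic acids and gene expression, 3 did so: AT1G09200, AT4G30680 at -1.33 and AT1G79220 at -1.15. Of the 3 plastid lumen and membrane proteins, AT1G76450 and AT3G47980 (-1.36) did so, but the groups overlapped for AT3G47980. None of the 5 cell surface and signalling genes did so, and their differences ran from -0.95 for AT3G57630 to -0.50 for AT1G61590. No test of a difference between these groups was made.

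The scale on which the values were compared also mattered. On the values as deposited, the median of all probes was higher with bromoxynil by 0.46 (log2). The differences of the 40 had a median of -1.01 there. All were below 0, which the choice at -1 or less made likely. Of the 40, 22 were -1 or less, against 59 (8.53%) of the 692 named probes. The deposited values did not overlap for 31 of the 40, against 74 (10.7%) of the named probes. The 9 genes whose deposited values overlapped were AT4G22490, AT1G09200, AT2G06040, AT5G48440, AT5G39410, AT4G20820, AT2G39000, AT2G25640 and AT4G33480. With a pseudocount of 0.1 in place of a floor for zeros, 23 of the 40 were -1 or less, against 43 (6.21%) of the named probes. With each array centred on its median, all 40 were, against 121 (17.5%) of the named probes. A set of 11 genes had groups that did not overlap and a difference of -1 or less on all 5 scales, the place adjustment included, against 18 (2.6%) of the 692 named probes. They were AT4G16060, AILP1, AT4G05030, AT4G30680, AT2G13690, AT3G45770, AT4G30740, AT1G15140, AT5G27860, AT4G32340 and AT1G76450. AT4G30740, AT1G15140 and AT1G76450 were the only 3 of these 11 above the dimmest 25% of probes.

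**Figure D4:**
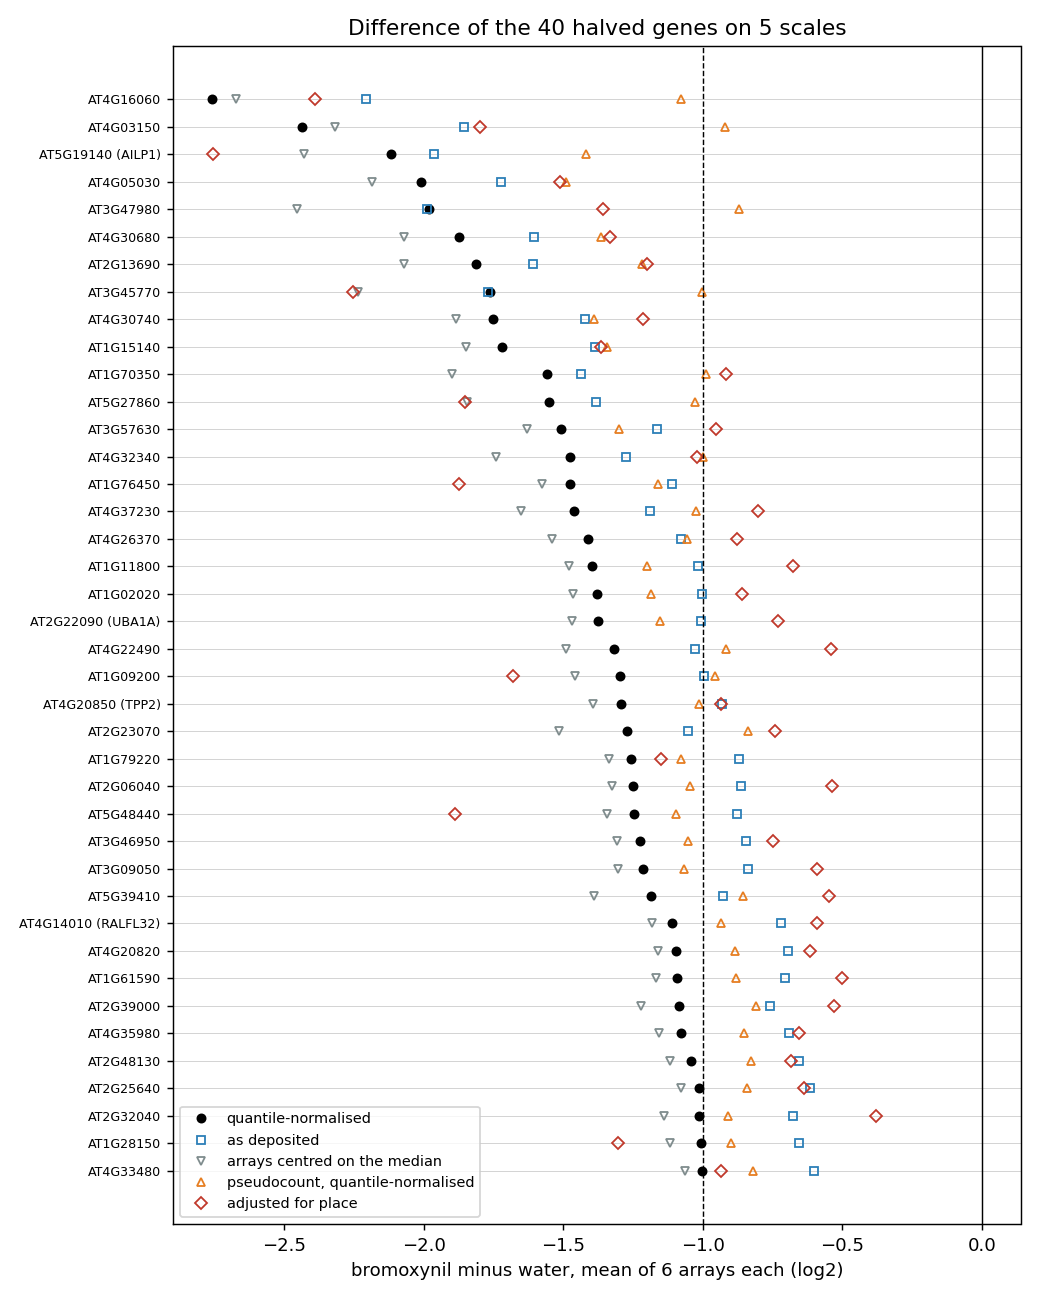
Log2 difference between bromoxynil and water (mean of 6 arrays each) of the 40 genes on 5 scales, with filled circles for quantile-normalised values, squares for deposited values, triangles pointing down for arrays centred on the median, triangles pointing up for a pseudocount and diamonds for the adjustment for place. Every symbol lies left of 0, which the choice at -1 or less made likely, and 17 diamonds lie at or left of the dashed line at -1.

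Without the adjustment for place, further probes that list a gene of this set together with other genes did not show the same difference. The probe that lists AILP1 with other genes averaged a relative intensity of 0.244 with bromoxynil and 0.196 with water, a log2 difference of 0.02 ± 0.21. Log2 differences were 0.37 ± 0.15 for the probe that lists AT2G13690, -0.16 ± 0.27 for the one that lists AT4G32340 and 0.16 ± 0.19 for the one that lists AT3G46950. In all 4 of these probes the groups overlapped before the adjustment for place. After it, the log2 difference was -0.73 for the probe that lists AILP1 and -0.58 for the one that lists AT4G32340. It was -0.23 for the probe that lists AT2G13690 and 0.90 for the one that lists AT3G46950. Which of the listed genes such a probe measures is not known.

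The genes were spread over all 5 chromosomes. Chromosome 4 held 14 of the 40 (35.0%) and 120 (17.3%) of the 692 named probes, while chromosome 5 held 4 of the 40 and 143 of the 692. By gene order in the RefSeq annotation, AT4G30680 and AT4G30740 are separated by 5 protein-coding genes, and AT4G20820 and AT4G20850 by 3. The only measured named gene next to one of the 40 was AT5G19150, beside AILP1, with a log2 difference of 0.11.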

How the data were processed

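The authors deposited array intensities on a linear scale, in which the same feature is 100 on all 12 arrays. Scanning, background subtraction and combination of spots are not given in the sources used here. The share of 0 values per array was 3.14% to 4.57%. The number of arrays limits the precision.

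A 0 was replaced with the smallest value above 0 on its array, log2 was taken, and the 12 arrays were quantile-normalised (limma 3.58.1, R 4.3.3). Standard errors are from limma (lmFit and eBayes, without a block for the array number) over all 3439 probes. limma with Benjamini-Hochberg adjustment called 1028 probes (29.9%) lower with bromoxynil at a threshold of 0.05, whereas no p is given for the 40 genes. The place adjustment subtracted, per array, the median of probes within 6 places in the repeat of probe numbers. The median of each of 12 columns, also taken from the probe number, was subtracted next. The length of the repeat was found from differences between water arrays. Other alternatives were deposited values, median centring, a pseudocount of 0.1, leaving out the dimmest 25% of probes, averaging arrays 1 with 2, 3 with 4 and 5 with 6, a replicate block, another variance model, other fold limits and leaving out each array.

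Of the 692 probes with 1 gene, 690 matched the RefSeq table of TAIR10.1, used for names and gene order only. Roles are background knowledge of the Arabidopsis loci. Ranges are given for the 10 genes with the largest differences and for others by role. The genes and lists were chosen with earlier results of these data known. Keyword classes for roles matched 30 of the 692 names and 2 of the 40, so they were not used. Of 8 green tissue, 4 root and 3 seed markers, 1 green marker and 0 others had a named probe (AT2G34420). Promoter and protein sequences were not used here. Deviations from the group means correlated in all 6 same-number pairs (0.323 to 0.418 over all probes). Over the probes left without the dimmest ones, these correlations were higher, from 0.536 for number 4 to 0.592 for number 5. Arrays of different number were not compared in this way, and no label states a pairing. The standard errors given do not use one. Nothing says that arrays came from separate plants, so errors may be technical only. The fit was tested on simulated data with independent errors for each probe and array. That setting held no change with place and no link between arrays, so it cannot speak to either. Python 3.11.15 and matplotlib 3.10.9 were used for figures.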

Additional observations from a re-analysis of the deposited data

Results flagged for a closer look

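Of 82 groups of 6 arrays examined (each of the 40 genes and their median, with bromoxynil and with water), 9 (11.0%) contained an array that stood apart. The genes were chosen on the values of these same arrays, so this share cannot be set against a chance rate. Values are quantile-normalised log2. On bromoxynil array 1, AT4G16060 was at -11.08, against -3.83 to -3.02 on the others, and AT4G03150 was at -11.08, against -3.23 to -2.66; both are listed at 0 there. On the same array AT4G32340 was at -3.69, against -2.92 to -2.72, and AT2G39000 was at -3.06, against -2.17 to -1.86. AT5G39410 was at -3.27 on bromoxynil array 2, against -2.56 to -2.20. AT1G02020 was at -1.67 on bromoxynil array 3, against -1.34 to -1.15. AT3G45770 was at -5.95 on bromoxynil array 6, against -3.61 to -2.78. AT3G47980 was at -1.14 on water array 2, against -3.01 to -2.47, and AT2G39000 was at -1.63 on water array 3, against -1.19 to -0.94.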

How the results depend on the processing

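Of 182 values of the 40 genes recomputed on other scales or without dim probes, 76 moved by more than the spread between arrays. These were 32 of 40 with the place adjustment, 21 of 40 on deposited values, 18 of 40 with the pseudocount, 2 of 40 with median centring and 3 of 22 without the dimmest 25%. Of the 182 values, 0 changed sign, which the choice at -1 or less made likely. On deposited values, 21 named genes met both conditions of the choice, 22 of the 40 were at -1 or less, and limma called 640 probes of the whole table lower (Benjamini-Hochberg). With the pseudocount, 23 named genes met both conditions, all of them among the 40. Without the dimmest 25% of probes, 22 of the 40 were left, and all 22 stayed at -1 or less. After the place adjustment 17 of the 40 were at -1 or less. With the same genes left out of the count, 23 named genes outside the 40 met both conditions. Averaging consecutive arrays as well was an alternative chosen after seeing the data. It leaves every mean difference as it was, so the count of 17 at -1 or less could not change. With both, 513 probes were called lower, against 876 with the place adjustment alone, 712 with averaging alone and 1028 with neither. Averaging leaves 3 values per group. A limit of -0.8 gave 61 named genes, against 40 at the limit of -1. Leaving out 1 array gave 39 to 46 named genes, kept 37 to 40 of the 40 at -1 or less and called 974 to 1049 probes lower. A replicate block on the array number raised the probes called lower in limma to 1121, against 1028 without it. The causes of these shifts were not tested. Signal over background was not measured, which limits the dim genes most.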
